A study of Mus musculus with 10 samples.

Results

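Blastocysts that developed from eggs without maternal Tet3 were compared with zygotes of the same genotype, to describe how much DNA methylation is lost during cleavage in these embryos. The assay was reduced representation bisulfite sequencing (RRBS). It digests DNA with the enzyme MspI, reads CpG-rich fragments and scores each cytosine as converted or not. The regions compared were autosomal tiles of 100 bp in which the methylated and unmethylated counts of all cytosine positions summed to at least 10 in each of the 4 libraries. Of 183899 autosomal tiles with any count in the series, 13773 met this demand, which is 7.49%. The rule uses coverage and no methylation value. No coverage was asked of the wild-type (WT) libraries.

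The 4 libraries are 2 of CKO zygotes and 2 of CKO blastocysts, where CKO stands in the sample titles for the genotype maternal Tet3 KO. The embryos were C57BL/6J x CAST/EiJ, made by fertilising in vitro the eggs of superovulated females of 7 to 10 weeks with sperm of adult CAST/EiJ males, whose genotype is labelled WT. Zygotes were collected 13 h and blastocysts 96 h after fertilisation. A library held 40 to 50 pooled zygotes or 4 pooled blastocysts, so a blastocyst library rests on few embryos. WT zygotes and WT blastocysts of the same cross, strain and times, and CAST/EiJ sperm, also with 2 libraries each, serve here only as a comparison and to sort tiles. The sources used here do not give the promoter behind the Cre recombinase of the knockout, or say if reads were split by parental allele. The labels call the 2 libraries of a group biological duplicates.

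Tet3 is a dioxygenase stored in the egg that oxidises 5-methylcytosine, above all on the chromosomes brought in by the sperm. Methylation of the early embryo is also diluted at each round of replication, because newly made strands are not fully methylated during cleavage, and it is commonly lowest around the blastocyst stage. RRBS cannot tell 5-methylcytosine from 5-hydroxymethylcytosine, since both resist bisulfite conversion, so each level below is their sum.

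The CKO zygote libraries held 1408184 and 1508297 counts and the CKO blastocyst libraries 1005492 and 1046611. A tile had a median of 30 counts per library, summed over a median of 3 cytosine positions. Positions of a tile are often covered by the same reads: the deepest position of a tile had a median of 14 and 15 counts in the zygote libraries and 11 in each blastocyst library. Tile counts are therefore not numbers of reads. Over all tiles the replicate levels correlated across tiles with r = 0.80 in zygotes and 0.55 in blastocysts.

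Mean methylation was much lower in CKO blastocysts than in CKO zygotes. Over the 13773 tiles, with each tile given equal weight, methylation was 29.1% and 29.2% in the zygote libraries and 15.1% and 14.8% in the blastocyst libraries. Both blastocyst libraries lay below both zygote libraries, by at least 14.0 points. The means were 29.2% ± 0.0529 and 14.9% ± 0.238 (SD, n = 2 each), a difference of -14.2 points with an SD of 0.244. Blastocysts thus held 51.2% ± 0.581 (SE) of the zygote level. The exact two-sided permutation p was 0.333, which is the smallest that 2 against 2 libraries can give, and it was the same for each class of autosomal tiles below.

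Tiles were then sorted by their level in sperm, which is independent of the embryo libraries. Of the 13773 tiles, 13515 had at least 10 counts in each sperm library. Sperm-methylated tiles, at 80% or more in pooled sperm, numbered 4225, or 31.3%. Another 1922 tiles were intermediate, and 7368 were at 20% or less and are called sperm-unmethylated. The 258 tiles without enough sperm counts had 42.1% ± 0.978 in zygotes and 21.2% ± 0.216 in blastocysts (SD, n = 2 each).

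The loss in points lay in the tiles that sperm had methylated. Sperm-methylated tiles, with a mean of 96.3% in sperm, had 69.5% and 69.8% in the zygote libraries and 35.8% and 35.0% in the blastocyst libraries. The lower zygote library exceeded the higher blastocyst library by 33.7 points. The difference was -34.2 points with an SD of 0.605, and 50.9% ± 0.572 (SE) of the zygote level was kept. Intermediate tiles had 39.6% and 39.5% in zygotes and 20.0% and 19.6% in blastocysts, a difference of -19.8 points (SD 0.283), with 50.0% ± 0.493 kept. Sperm-unmethylated tiles had 2.84% and 2.75% in zygotes and 1.74% and 1.66% in blastocysts, a difference of -1.09 points (SD 0.0818). Here 60.9% ± 1.64 of the small zygote level was kept.

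**Figure D1:**
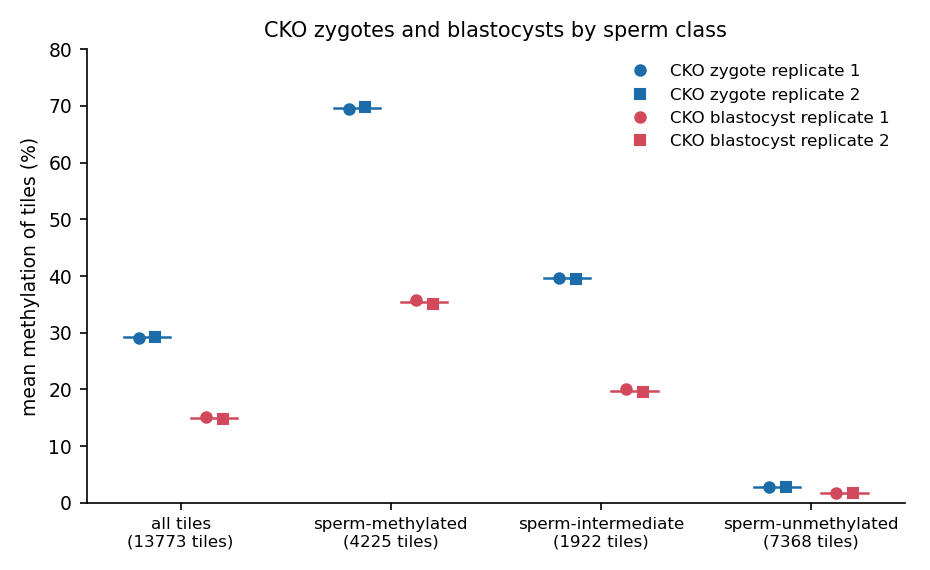
Mean methylation of tiles (%, vertical axis) in each CKO library for all tiles and for 3 classes by sperm level; symbols are single libraries and lines are group means. In each class both blastocyst libraries lie below both zygote libraries, with 69.7% against 35.4% at sperm-methylated tiles and 2.79% against 1.70% at sperm-unmethylated ones.

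The share kept changed little over most of the range of sperm levels, while the points lost grew with the level. In bins of 10 points of sperm methylation, the zygote mean went from 2.36% in the lowest bin (7073 tiles) to 70.2% in the highest (3879 tiles). The blastocyst mean went from 1.48% to 35.8% in the same bins. In the 7 bins above 30% sperm methylation the share kept lay between 46.4% ± 1.59 and 51.0% ± 0.489 (SE). It was 62.8% ± 2.72 in the lowest bin, 52.8% ± 2.76 above 10 up to 20% and 59.6% ± 10.1 above 20 up to 30%, where only 187 tiles were measured. The 854 tiles at exactly 100% in sperm had 71.0% ± 0.467 in zygotes and 35.7% ± 1.58 in blastocysts (SD, n = 2 each). Full methylation in sperm thus went with a kept share of 50.3% ± 1.59 (SE), close to that of all sperm-methylated tiles.

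**Figure D2:**
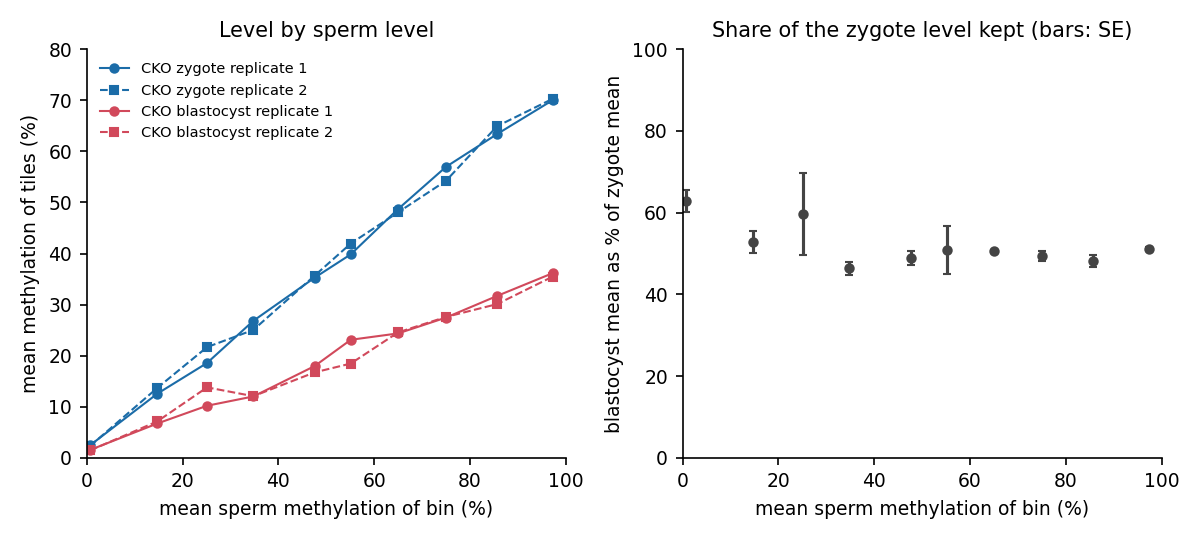
Left, mean methylation of tiles (%) in each CKO library against the mean sperm methylation of the bin (%), in 10 bins; right, blastocyst mean as a percent of the zygote mean, with SE. Levels climb with sperm methylation, with a step down in blastocyst replicate 2 from 13.8% (above 20 up to 30% in sperm) to 12.1% (above 30 up to 40%). Above 30% sperm methylation the share kept stays between 46.4% and 51.0%.

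The distribution of tile levels moved from high to low and intermediate values. Among sperm-methylated tiles, 40.6% ± 1.66 were at 80% or more in zygotes and 7.40% ± 1.19 in blastocysts (SD, n = 2 each). Tiles at 20% or less made up 4.69% ± 0.904 in zygotes and 33.8% ± 0.803 in blastocysts. Tiles with no methylated count went from 1.93% ± 0.619 to 15.6% ± 0.770. Most blastocyst tiles were neither high nor low: 58.8% ± 1.99 lay between 20 and 80%, against 54.7% ± 2.56 of zygote tiles. The median sperm-methylated tile had 72.7% and 73.7% in the zygote libraries and 33.3% in each blastocyst library. Levels of single tiles come in steps at this depth, since a tile with few reads can take few values.

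**Figure D3:**
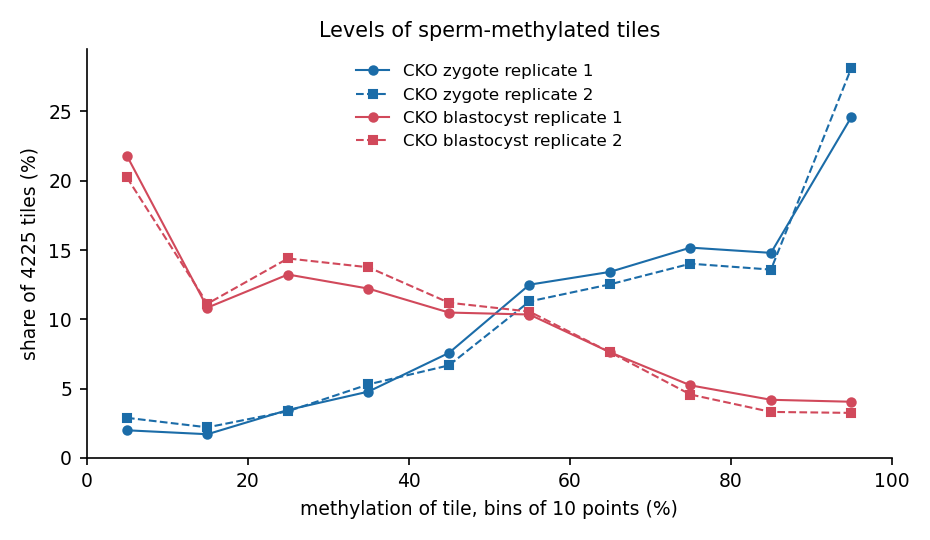
Share of the 4225 sperm-methylated tiles (%, vertical axis) in bins of 10 points of methylation (horizontal axis), 1 line per CKO library. The zygote libraries peak at 90 to 100% (24.6% and 28.2% of tiles) and the blastocyst libraries at 0 to 10% (21.8% and 20.2% of tiles).

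At single tiles the 2 libraries of a group often differed widely, although the class means hardly did. Across the 4225 sperm-methylated tiles the replicates correlated with r = 0.15 in zygotes and r = 0.17 in blastocysts. The root mean square distance between the 2 zygote libraries was 32.8 points, and 34.6 points between the 2 blastocyst libraries. Counting error, with counts taken as independent, would give 12 and 13.8 points. The 2 libraries lay 60 points or more apart at 329 tiles (7.79%) in zygotes and at 368 tiles (8.71%) in blastocysts. A blastocyst library rests on 4 embryos and the reads carry no molecular identifiers, and the part of either in this spread was not tested.

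Sorting tiles by zygote level needs care for this reason, since a tile picked as high in a library is in part high by chance. Tiles were therefore sorted by 1 zygote replicate and read in the other and in the blastocysts, both ways round. Tiles at up to 20% in the sorting replicate (7696 and 7779 tiles) had 5.15% ± 0.448 in the other zygote library and 2.77% ± 0.0196 in blastocysts (SD, n = 2 each). In the bin above 40 up to 60% (1583 and 1464 tiles) the levels were 54.5% ± 0.306 and 27.7% ± 0.980. Above 80% (1725 and 1861 tiles) they were 73.4% ± 0.652 and 37.2% ± 0.578. The difference between stages grew from -2.38 points in the lowest bin to -20.5, -26.8, -31.1 and -36.2 points in the next 4. The share kept was 53.7% ± 3.32, 49.8% ± 0.218, 50.8% ± 1.29, 51.8% ± 0.882 and 50.7% ± 0.641 (SE) in the 5 bins. The 5 shares thus lay close together while the difference in points grew with each bin.

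Within sperm-methylated tiles, the zygote level of a single library said little about the other library. Tiles at up to 20% in the sorting replicate (171 and 225 tiles) had 65.3% ± 0.304 in the other zygote library, against 74.2% ± 0.523 for tiles above 80% (1581 and 1706 tiles; SD, n = 2 each). Their blastocyst levels were 33.3% ± 0.856 and 37.7% ± 0.477. The shares kept were 51.0% ± 0.943 and 50.8% ± 0.520 (SE), and over the 5 bins they lay between 48.6% and 51.4%. Among sperm-unmethylated tiles, those above 40% in the sorting replicate (133 and 125 tiles) had 32.0% ± 1.41 in the other zygote library and 18.2% ± 0.607 in blastocysts, with 56.8% ± 2.22 kept. Methylation found in zygotes at tiles with 20% or less in sperm was thus also lower in blastocysts, by 13.8 points (SD 1.53).

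**Figure D4:**
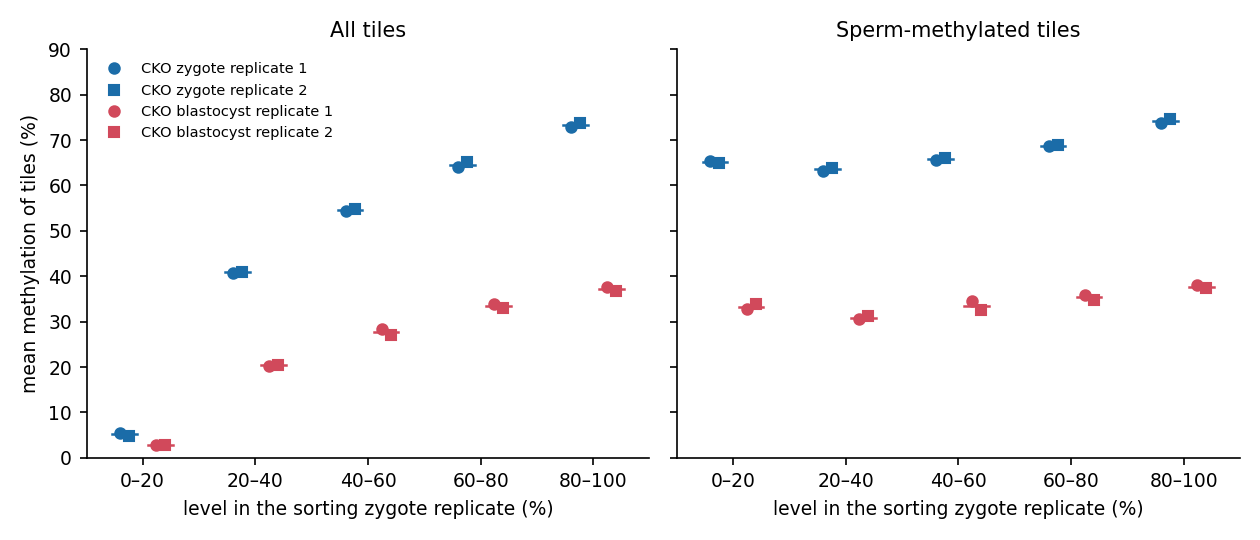
Mean methylation of tiles (%, vertical axis) by level in the sorting CKO zygote replicate (%, horizontal axis), for all tiles (left) and sperm-methylated tiles (right); each zygote symbol is the library that was not used to sort. Over all tiles both stages climb with the zygote level, while among sperm-methylated tiles the other zygote library spans 63.5% to 74.2% and blastocysts 30.9% to 37.7%.

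The 899 tiles at 80% or more in both zygote libraries were followed into the blastocyst libraries, which did not choose them. Blastocyst means over these tiles were 40.1% and 38.3%. Both blastocyst libraries were at 20% or less in 101 of these tiles, and 27 had no methylated count in either library. Both were at 60% or more in 70 tiles and at 80% or more in 14. In another 42 tiles one blastocyst library was at 20% or less and the other at 80% or more. At the other end, 6157 tiles were at 5% or less in both zygote libraries. They had 0.822% and 0.794% in the blastocyst libraries, and 5642 of them stayed at 5% or less in both. Only 8 of the 6157 reached 20% in both blastocyst libraries, and 130 in at least 1.

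Sperm-methylated tiles with 4 to 7 cytosine positions kept a somewhat larger share than those with 1 to 3. The number of covered cytosine positions served as the measure. Cytosines of a CpG on both strands count separately where both are covered, so the classes mix CpG number with coverage of both strands. Tiles with 1 to 3 positions (3718) had 69.3% and 69.8% in zygotes and 35.3% and 34.6% in blastocysts. Tiles with 4 to 7 positions (485) had 71.2% and 70.2% in zygotes and 39.6% and 38.0% in blastocysts. The shares kept were 50.3% ± 0.487 and 54.8% ± 1.19 (SE). Within each library, the tiles with 4 to 7 positions exceeded those with 1 to 3 by 1.95 and 0.411 points in zygotes and by 4.30 and 3.34 points in blastocysts. This excess was larger in blastocysts by 2.64 points, which is larger than its SD of 1.28. By single counts, the share kept was 49.2% ± 0.171 with 1 position, 50.8% ± 0.581 with 2, 51.1% ± 0.964 with 3, 54.0% ± 2.47 with 4 and 55.4% ± 1.81 with 5.

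The same order held in intermediate tiles, with 48.9% ± 0.971 kept at 1 to 3 positions (1466 tiles) and 52.9% ± 0.494 at 4 to 7 (441 tiles). In sperm-unmethylated tiles no such order was seen. There the share kept was 62.0% ± 1.38 at 1 to 3 positions, 59.4% ± 4.92 at 4 to 7 and 61.0% ± 15.4 at 8 or more, from zygote levels of 3.88%, 2.47% and 1.53%. Over all tiles, those with 8 or more positions (1609) had only 2.85% ± 0.00777 in zygotes and 1.72% ± 0.325 in blastocysts, and 1566 of them were sperm-unmethylated.

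Only 22 sperm-methylated tiles held 8 or more positions, and they lay on 11 chromosomes and more than 1 kb apart from each other. They had 68.6% and 70.6% in the zygote libraries and 47.1% and 38.2% in the blastocyst libraries, with 61.3% ± 6.43 (SE) kept. The excess over tiles with 1 to 3 positions was 11.8 and 3.58 points in the blastocyst libraries and -0.631 and 0.761 points in the zygote libraries. That is a change of 7.64 points with an SD of 5.92. Blastocyst replicate 1 carried more of it: it lay 20 points or more above replicate 2 in 8 of the 22 tiles and 20 points or more below it in 4. Tile means were lower in blastocysts in 20 of the 22 tiles, and in 13 of the 22 both blastocyst libraries lay below both zygote libraries. These shares are near those of all sperm-methylated tiles, of which 90% had a lower mean and 60.4% did not overlap in that direction (28.7% of all tiles). The larger share kept did not hold for single positions of at least 10 counts. There the difference went from -26.9 to -37.2 points and the share kept from 61.3% to 45.7%, below the 50.0% at 1 to 3 positions, from only 15 positions in 7 of these tiles.

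**Figure D5:**
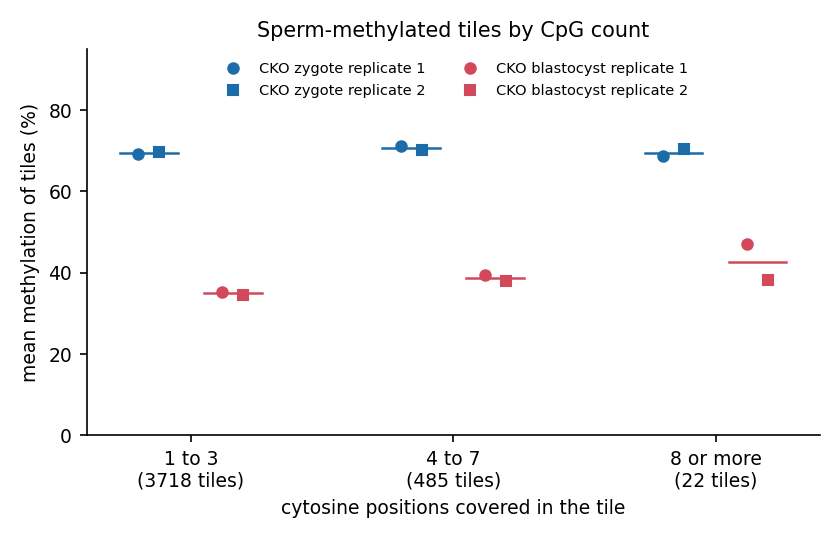
Mean methylation (%, vertical axis) of sperm-methylated tiles in each CKO library, by the number of cytosine positions covered in the tile (horizontal axis); symbols are single libraries and lines are group means. Zygote means stay between 69.5% and 70.7%, blastocyst means go from 34.9% over 38.8% to 42.7%, and the 2 blastocyst libraries lie apart in the last class of 22 tiles.

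The 3 tiles with the most counts among the 22 sperm-methylated ones of 8 or more positions show how unequal the libraries were. They were taken from different chromosomes. The tile on chromosome 4 at positions 117357601 to 117357700 (10 cytosine positions, 91.7% in sperm) had 59.0% of 100 counts and 75.2% of 310 in zygotes. It had 5.33% of 75 and 49.7% of 185 in blastocysts. On chromosome 1, the tile at positions 166753301 to 166753400 (8 positions) had 62.5% and 75.7% in zygotes and 59.6% and 14.6% in blastocysts. Both tiles had lower levels in each blastocyst library than in either zygote library, but the blastocyst libraries differed by over 40 points, in opposite directions. The tile on chromosome 5 at positions 119575601 to 119575700 (13 positions) had 88.0% and 65.5% in zygotes and 60% and 74.3% in blastocysts, and its groups overlapped. None of the 3 passed the test described next (edgeR, adjusted p of 0.194, 0.644 and 1).

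Single tiles were tested with edgeR's quasi-likelihood test on methylated and unmethylated counts, with Benjamini-Hochberg adjustment over all 13773 tiles. At an adjusted p below 0.05, 28 tiles fell and 0 rose, which is 0.203% and 0% of those tested. At an unadjusted p below 0.05, 1528 tiles were lower and 27 higher. By limma the counts were 81 and 6, and by edgeR's likelihood ratio test 428 and 3. Only 6 of the 28 tiles were among those called by limma, and 25 among those of the likelihood ratio test. Without zygote replicate 1 the count was 18 and without zygote replicate 2 it was 9. Without blastocyst replicate 1, and without blastocyst replicate 2, no tile passed (593 and 601 tiles were then lower at an unadjusted p below 0.05). The count of single tiles is thus small and depends on each library, and most of the description rests on means over many tiles.

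Regardless of the test, both blastocyst libraries lay below both zygote libraries in 3953 tiles (28.7%) and above them in 265 (1.92%). Among sperm-methylated tiles the counts were 2553 below and 70 above of 4225. Among intermediate tiles they were 982 below and 56 above, and among sperm-unmethylated tiles, 330 below and 134 above of 7368. The mean was lower in blastocysts in 3801 of the sperm-methylated tiles, or 90%, with a median difference of -34.6 points against -1.16 points over all tiles.

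The 28 tiles that fell lay on 12 autosomes, and 24 were sperm-methylated and 4 intermediate. Sperm-methylated tiles made up 31.3% of all tiles with enough sperm counts. A tile can only fall this far from a high zygote level, where the class is far more common. Of tiles above 80% in a sorting zygote replicate, 1581 of 1725 and 1706 of 1861 were sperm-methylated, so no excess of this class is read from the 28. By number of positions, 17 held 1 to 3, 9 held 4 to 7 and 2 held 8 or more. Of all 13773 tiles, 8127, 4037 and 1609 were in these classes. Of the 24 sperm-methylated tiles that fell, 8 held 4 or more positions. Among all 4225 sperm-methylated tiles, 485 held 4 to 7 and 22 held 8 or more. Counts are summed over positions, and the 28 tiles had a median of 48 counts per library against 30 over all tiles. The part of depth in these counts of positions was not tested. The fall of the 28 tiles ranged from 57.1 to 100 points with a median of 85.0, and the 2 groups did not overlap in any of them. The same 4 libraries called these tiles, so large falls and separate groups follow at least in part from the choice. Both blastocyst libraries lay below both zygote libraries in 28.7% of all tiles and 60.4% of sperm-methylated ones. Of the 18 among the 28 tiles that had 10 counts in each WT embryo library, both WT blastocyst libraries lay below both WT zygote libraries in 11. Of all tiles so covered 22.5% showed this order, and of the 1930 sperm-methylated ones 57.5%, so the count is near the share of the class.

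The largest single fall lay on chromosome 8 at positions 124037101 to 124037200 (2 cytosine positions, 95% in sperm). Each of the 20 and 32 zygote counts was methylated, against 0 of 30 and 0 of 48 blastocyst counts (edgeR, adjusted p = 0.00824). If counts were independent, 0 methylated counts would allow up to 10.0% and 6.25% (3 counts of the total). The next tile, at 124037201 to 124037300 with 3 further positions, had 83.3% and 91.7% in zygotes and 0% in both blastocyst libraries. Both tiles had the same depth at their deepest positions in each library, and they are counted here as 1 place.

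Another tile that fell lay on chromosome 9 at positions 7961401 to 7961500. All of 54 and 66 counts were methylated in zygotes, against 6.25% of 48 and 9.09% of 22 in blastocysts (adjusted p = 0.00598 in edgeR). On chromosome 11, the tile at positions 97520401 to 97520500 was intermediate in sperm, at 63.4%, and fully methylated in both zygote libraries (30 and 39 counts). It had 9.09% of 33 and 3.70% of 27 in blastocysts, and the fall was 93.6 points. Here the zygotes were more methylated than sperm. On chromosome 4 at positions 151653101 to 151653200, all of 20 and 39 zygote counts were methylated, while blastocysts had 10.5% of 19 and 0% of 24. Zygotes and blastocysts were also far apart on chromosome 15 at positions 98672101 to 98672200, with 92.3% and 92.0% in zygotes and 0% in both blastocyst libraries (21 and 24 counts over 3 positions). On chromosome 17 at positions 28101201 to 28101300 zygotes had 83.3% and 100% and blastocysts 0% of 27 counts in each library. The other 3 tiles among the 10 with the largest fall lay on chromosomes 5, 7 and 9 and fell by 89.3 to 92.6 points.

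No tile rose past the threshold. The 3 tiles with the smallest p among those with a higher mean in blastocysts had adjusted p values of 0.0919, 0.0955 and 0.121 (edgeR). On chromosome 4 at positions 151490301 to 151490400 (6 cytosine positions, 0% in sperm), zygotes had 5.56% of 54 and 0% of 78 counts, and blastocysts 33.3% of 12 and 60.2% of 108. The deepest position of this tile had only 2 counts in blastocyst replicate 1, so its level there rests on very few reads. In the other two, on chromosome 6 at positions 117770301 to 117770400 and on chromosome 2 at positions 164796601 to 164796700, the higher mean came from blastocyst replicate 2 alone. They had 35.5% and 22.8% in that library, and 0% in replicate 1.

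Few tiles stayed high throughout. In 145 tiles all 4 libraries were at 60% or more. Of the 140 with enough sperm counts, 136 were sperm-methylated, against 31.3% of all tiles with such counts. These tiles had to be high in zygotes, where the class is more common. It made up 1581 of 1725 and 1706 of 1861 tiles above 80% in a sorting zygote replicate. Above 60 up to 80% it made up 1235 of 1571 and 1140 of 1499. The 145 tiles lay on all 19 autosomes, and 114 held 1 to 3 positions, 28 held 4 to 7 and 3 held 8 or more. All 4225 sperm-methylated tiles split into 3718, 485 and 22 in these classes, and all 13773 tiles into 8127, 4037 and 1609. The 5 of the 145 with the highest blastocyst level were at 100% in both blastocyst libraries. They lay on chromosomes 6, 8 and 10 and, for 2 of them, on chromosome 11. The tile on chromosome 11 at positions 102581701 to 102581800 was at 100% in all 4 libraries, over 5 cytosine positions and 15, 55, 20 and 15 counts. Its deepest position had only 3, 11, 4 and 3 counts. On chromosome 10, the tile at positions 33409501 to 33409600 had 100% and 98.0% in zygotes and 100% of 22 and of 14 counts in blastocysts.

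The tiles that stayed high in CKO embryos were also higher than others in the WT libraries, which had no part in choosing them. The comparison used sperm-methylated tiles with 10 counts in all embryo libraries and 60% or more in both CKO zygote libraries, of which there were 951. The 59 of these that stayed at 60% or more in both CKO blastocyst libraries had 41.6% and 40.9% in the WT blastocyst libraries, and the rest had 30.7% and 29.7%. The gap was 11 points ± 0.216 (SD, n = 2). This SD is taken between 2 libraries and does not measure the spread between the 59 tiles. In the WT zygote libraries the same tiles had 72.3% and 71.3%, against 60.9% and 62.9% for the rest, a gap of 9.86 points ± 2.15. The tiles themselves were mostly not high in WT blastocysts: only 3 of the 59 were at 60% or more in both WT blastocyst libraries, as were 65 of all 1930 sperm-methylated tiles covered in WT.

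Counts summed over sperm-methylated tiles in windows of 5 Mb gave a sharper test. Of 277 windows with at least 100 counts in every library, 267 fell and 0 rose (edgeR, adjusted p below 0.05), which is 96.4%. The remaining 10 windows were also lower in blastocysts, with a median of 5 tiles each. By limma 270 fell and 0 rose, and no window was higher at an unadjusted p below 0.05 in edgeR. The median window difference was -34.4 points. The share kept had quartiles of 45.7% and 57.7% around a median of 51.9%. Across windows the replicates correlated with r = 0.0958 in zygotes and 0.185 in blastocysts, so the ranking of windows was hardly shared between libraries.

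Among the 58 windows with 20 or more tiles, the share kept ranged from 32.2% to 70.1%. These extremes were picked after their values were seen. The lowest was on chromosome 11 at positions 50000001 to 55000000, with 67.9% and 79.8% in zygotes and 27.0% and 20.6% in blastocysts (25 tiles). The highest was on chromosome 1 at positions 90000001 to 95000000, with 66.0% and 70.3% in zygotes and 50.1% and 45.5% in blastocysts (21 tiles). Both windows fell (adjusted p of 9.55e-15 and 0.00134 in edgeR). The size of such p values depends on the fit. The smallest adjusted p over all 277 windows was 3.1e-28 in this edgeR fit, 0.000437 in edgeR with a replicate block and 0.000237 by limma.

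The loss was seen on every autosome. Blastocyst libraries lay below zygote libraries without overlap on all 19, by -29.6 to -38.6 points in means over 127 to 342 sperm-methylated tiles. The share kept was lowest on chromosome 15, at 46.7% ± 0.684 (SE; 176 tiles), and highest on chromosome 13, at 56.2% ± 1.27 (193 tiles). On chromosome 13 zygotes had 66.3% and 69.0% and blastocysts 38.4% and 37.6%. On chromosome 15 zygotes had 73.4% and 71.6% and blastocysts 33.6% and 34.1%. The order of chromosomes was not tested.

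WT blastocysts were also less methylated than WT zygotes at these tiles, from a lower zygote level. Over 1930 sperm-methylated tiles with 10 counts in all 8 embryo libraries, WT zygotes had 57.7% and 58.1% and WT blastocysts 27.7% and 26.4%. CKO zygotes had 69.3% and 69.6% there and CKO blastocysts 36.4% and 35.8%. The difference between stages was -33.3 points in CKO and -30.8 points in WT, so the CKO difference minus the WT difference was -2.50 ± 0.794 points (SE), a larger loss in CKO. At a minimum of 20 counts it was -1.36 points with an SD of 2.45, within its spread. This SD and the SE of 0.794 are unlike measures and are not to be compared. As a share, CKO embryos kept more of the zygote level: 52.0% ± 0.447 against 46.7% ± 1.19 (SE), a gap of 5.26 ± 1.27. At sperm-unmethylated tiles (4632), where levels were at most 2.61%, the gap went the other way, with 62.4% ± 2.02 kept in CKO and 73.4% ± 5.03 in WT. At sperm-methylated tiles the direction of the comparison therefore differs between points and shares.

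At intermediate tiles (943) the CKO difference minus the WT difference was -3.49 ± 0.775 points (SE). CKO embryos kept 49.1% ± 1.17 against 47.1% ± 1.42, a gap that is close to its SE of 1.84. By number of positions, the CKO difference minus the WT difference was -2.25 ± 0.582 points (SE) at sperm-methylated tiles with 1 to 3 (1605). It was -4.58 ± 2.66 (SE) at those with 4 to 7 (307). At the 18 with 8 or more it was 11.1 ± 2.35 points, a smaller loss in CKO, so the 3 classes show no steady order. The SE is taken between libraries and does not measure the spread between the 18 tiles. CKO blastocysts had 49.8% and 46.1% at these tiles and WT blastocysts 25.8% and 27.4%. Fewer points were lost in CKO in 13 of the 18, against 47.2% of the 1930 sperm-methylated tiles and 32.5% of all tiles. In 7 of the 18 both CKO blastocyst libraries lay above both WT blastocyst libraries, and in 1 both lay below. Of the sperm-methylated tiles 28.7% lay above and 9.53% below in this way, and of all tiles 12% and 5.41%. No test was made of these 18 tiles against the rest. The test of the interaction called 1 of 7546 tiles (0.0133%, edgeR, adjusted p below 0.05) and 0 of 158 windows (0%). Without CKO blastocyst replicate 2 or WT blastocyst replicate 2 no tile was called, and limma called 9 tiles. Of the windows, 3 had a larger and 1 a smaller loss in CKO at an unadjusted p below 0.05. The tile is described with the results that call for a closer look. At an unadjusted p below 0.05, 91 tiles had a larger and 76 a smaller change in CKO in the direction of loss.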

How the data were processed

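RRBS was done on 10 libraries in 5 groups of 2, each read against mouse build mm9 with Bismark 0.10.1 after Trim Galore, per the submitters' processing notes. The deposited files give, per cytosine position, a methylated and an unmethylated count and the percent methylated that the authors derived from them. That percent matched the counts within 0.001 points at 100% of positions. Reads carry no molecular identifiers, so limits cover counting error only. The quasi-likelihood and limma p-values use the spread between 2 libraries of a group, moderated over all tiles or windows tested. They thus borrow variance across tiles or windows of the same 4 libraries.

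Counts were summed in tiles of 100 bp with a minimum of 10 in each CKO library, and tile percentages were averaged with equal weight. Each class mean was compared over libraries by an exact two-sided permutation test. Tiles, and windows of 5 Mb with at least 100 counts per library, were tested with edgeR 4.0.16 (quasi-likelihood, dispersion 0, Benjamini-Hochberg threshold 0.05), tested first on simulated data. Alternatives were limma 3.58.1 (R 4.3.3), other minima, a likelihood ratio test, Fisher's exact test, a replicate block and leaving out each library. Tiles named are the 10 largest falls past the threshold, the 3 smallest p among higher tiles when none passed, the 5 highest in blastocysts among tiles at 60% or more in all 4 libraries, and the 3 CpG-dense ones with most counts. The members and lists were chosen with earlier results of these data known. Gene annotation of mm9 was not used here, so tiles are given by position.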

Additional observations from a re-analysis of the deposited data

Results flagged for a closer look

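The tile on chromosome 12 at positions 107211901 to 107212000 (4 cytosine positions) moved in opposite directions in CKO and WT embryos, and the difference itself passed the test. CKO zygotes had 65.0% of 40 and 57.6% of 132 counts, and CKO blastocysts 7.50% of 40 and 0% of 76. WT zygotes had 0% of 96 and of 64 counts, and WT blastocysts 55.8% of 52 and 54.3% of 116. The change in CKO minus that in WT was -112.578 points (edgeR interaction, adjusted p = 0.000427 over 7546 tiles). The stage difference within CKO did not pass on its own (adjusted p = 0.0919 in edgeR). The interaction was lost without CKO blastocyst replicate 2 (adjusted p = 0.222 in edgeR) and without WT blastocyst replicate 2 (0.0849).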

How the results depend on the processing

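The difference over all tiles was -16.8 points at a minimum of 5 counts, -10.1 at 20, -16.6 for single positions and -10.5 weighted by counts; sperm-methylated tiles made up 37.9% of tiles at 5 counts and 19.9% at 20. A minimum of 5 gave -19.0 points for intermediate and -1.25 for sperm-unmethylated tiles. Sperm-unmethylated tiles had -0.992 at 20 counts, -0.969 for single positions, -0.879 with sperm thresholds of 90 and 10% and -0.899 weighted by counts. Sperm-methylated tiles with 1 to 3 positions had -35.5 at 20 counts and -32.4 among tiles at 40% or more in the other zygote replicate, where those with 4 to 7 had -28.0. Those with 8 or more had -37.2 for single positions.

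Sorted by the mean of both zygote libraries, which also chose the levels read, the 5 zygote bins had -0.0734, -11.2, -22.3, -35.9 and -51.8 points. At 20 counts they had -1.35, -18.5, -25.3, -29.4 and -38.4. The extra loss in CKO against WT was -1.36 points (SD 2.45) at 20 counts. As a share kept, the difference was 5.26 at the main minimum of 10 counts.

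Called tiles numbered 0 with a common dispersion (858 lower and 19 higher at an unadjusted p below 0.05), 431 by likelihood ratio, 87 by limma, 4745 by Fisher's exact test on pooled libraries, 55 in the fit of 8 libraries, 16 at 5 counts, 59 at 20, and 0 to 18 leaving out a library. The fit of 8 libraries called 147 of 158 windows. The interaction called 9 tiles by limma (an alternative chosen after seeing the data) and 0 to 1 leaving out a library. With the replicate block 16 tiles were called, 15 of them among the 28. Deviations of same-numbered libraries correlated with r = -0.0012 across tiles. No pairing by number was seen at single tiles, but this correlation cannot detect an offset shared by whole libraries. The log2 odds changed sign on chromosome 6 at 117770301 without CKO blastocyst replicate 2 (-0.723 to 8.77 leaving out a library) and at 128291201 without CKO zygote replicate 1 (-0.699 to 4.92). On chromosome 5 at 119575601 it did so with a common dispersion and by likelihood ratio (both -0.761) and without zygote replicate 2 (-1.53) or blastocyst replicate 2 (-0.514), up to 0.43 without blastocyst replicate 1, and limma gave -9.64 points. The cause was not tested. With 2 libraries a group and low agreement between them at single tiles, depth and library number limit what can be said of any 1 tile.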

Other observations

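On chromosome X, which was left out of the tiles above, only 6 sperm-methylated tiles had enough counts. They had 68.9% and 85.1% in CKO zygotes and 51.8% and 56.2% in CKO blastocysts. The 16 sperm-unmethylated tiles there had 6.45% and 5.26% in zygotes and 9.15% and 5.68% in blastocysts, and the groups overlapped.

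Neighbouring sperm-methylated tiles correlated weakly across replicates, but so did a tile with itself (r = 0.153 in zygotes and 0.168 in blastocysts). Low values therefore do not show that neighbours lack a shared level. Given as a description across tiles that share reads and libraries, a tile in a zygote library correlated with the adjacent tile in the other zygote library with r = 0.0842 over 284 pairs, and with r = 0.138 in blastocysts. Between tiles 200 to 1000 bp apart (41 pairs) r was 0.137 in zygotes and 0.0262 in blastocysts. At 1100 to 10000 bp (246 pairs) it was -0.0302 and 0.123. Between tiles 10100 to 100000 bp apart (1823 pairs) r was -0.000529 in zygotes and 0.0311 in blastocysts.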
